A study of Mus musculus with 2 samples.

Results

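Heterotrimeric G protein subunits were followed in ribosome footprints of the neonatal mouse brain. The set held 10 listed genes: Gnao1, Gnai1, Gnai2, Gnai3, Gnaq and Gnaz for alpha subunits, Gnb1 and Gnb2 for beta subunits, and Gng2 and Gng3 for gamma subunits. They were chosen by symbol, and each gene was represented by the transcript with the highest count over both libraries. Of the 10 genes, 9 were measured, among 45578 genes in all, and Gnai3 was not analysed here. The material was brain from control mice at postnatal day 5 with the genotype Smn+/-; SMN2tg/0, on a congenic FVB background. They came from colonies of the Taiwanese model of spinal muscular atrophy. The mice lacked 1 functional copy of the mouse Smn gene and carried the human SMN2 transgene. The series had 1 group, with 2 biological replicates and no other condition. The labels do not say whether the replicates were separate animals, so tests between them measure only the spread between these libraries.

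In RiboLace, translating ribosomes are captured on beads that carry an analogue of puromycin. The ribosome-protected fragments, 25 to 35 nucleotides long, were then sequenced. A heterotrimeric G protein couples a cell-surface receptor to enzymes and ion channels inside the cell. An activated receptor lets the alpha subunit exchange GDP for GTP and part from the beta-gamma dimer, and both pieces then act on effectors until the alpha subunit hydrolyses its GTP. In brain, proteins of the Gi and Go class carry signals of inhibitory receptors such as the GABA-B and opioid receptors, and Go alpha is known as an abundant protein of neuronal membranes and growth cones.

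Replicate 1 was the deeper library, with a gene-level total of 343552 counts against 120282 for replicate 2. On the CPM scale, which divides a count by the size of its library, a single count was worth 2.71 CPM in the first and 8.93 CPM in the second. A count of 0 therefore allowed up to 3 counts, or 8.13 and 26.8 CPM. Intervals given here cover counting error only, because amplified fragments are not independent molecules and a fragment could be counted on several transcripts. Markers of the cell types of brain were all detected. The 8 neuronal markers summed to 7068 and 8206 CPM in the 2 libraries, the 7 astrocyte markers to 3032 and 3349 CPM, and the 7 oligodendrocyte lineage markers to 615 and 732 CPM. The 7 microglia markers summed to 179 CPM in each replicate, the 6 endothelial markers to 214 and 277 CPM, and the 6 erythroid markers to 3816 and 4134 CPM. No marker of these lists was at 0 in both libraries. In whole brain, fewer cells of a type and less RNA per cell cannot be told apart.

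The 9 genes together held 938 counts in replicate 1, or 0.273% of gene counts (95% Wilson interval 0.256 to 0.291), and 255 counts in replicate 2, or 0.212% (0.188 to 0.240). These intervals did not overlap, and the mean was 0.243% ± 0.043 (SD, n = 2). The distance between the libraries depended on the denominator. Of the counts of protein-coding genes alone the share was 0.336% in replicate 1 and 0.290% in replicate 2, for which no interval was computed. All 9 passed the filter of a mean of at least 10 counts. Levels of different genes are compared here as CPM per kilobase of coding sequence. On that scale the members spanned a wide range, from Gng3 at the top to Gnaz at the bottom, against a median of 62.3 over the 4294 protein-coding genes that passed the filter and whose representative transcript was coding.

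Among the 5 measured alpha members of the set, Gnao1 (ENSMUSG00000031748), which encodes Go alpha, stood highest. It had 217 and 38 counts in replicates 1 and 2 over a coding sequence of 1065 nucleotides, or levels of 552 and 319 CPM per coding kilobase (435 ± 165, SD, n = 2). The 2 values of Gnao1 lay further apart than their counting intervals, 481 to 631 in replicate 1 and 225 to 437 in replicate 2. Its mean level lay above 92.9% of the protein-coding genes past the filter.

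The other alpha members stood at lower levels. Gnai1 and Gnai2 encode Gi alpha subunits, which inhibit adenylyl cyclase. Gnai1 (ENSMUSG00000057614) had 57 and 16 counts and levels of 145 and 134 CPM per coding kilobase (139.6 ± 7.70, SD, n = 2). Gnai2 (ENSMUSG00000032562) had 55 and 19 counts and levels of 139.6 and 159 (149 ± 13.6, SD, n = 2). The replicates of these Gi genes overlapped within counting error. Gnaq (ENSMUSG00000024639) encodes Gq alpha, which activates phospholipase C beta. It had 63 and 14 counts and levels of 158 and 116 CPM per coding kilobase (137 ± 29.9, SD, n = 2). Gnaz (ENSMUSG00000040009) encodes Gz alpha, a member of the Gi class that pertussis toxin does not modify. It had 32 and 16 counts and levels of 81.2 and 134 (107 ± 37.2, SD, n = 2), the lowest mean of the set. Both again overlapped between replicates within counting error. The span of Gnaq also holds pseudogenes with counts of their own, and paralogs such as Gnai1 and Gnai2 may share fragments, so single values are uncertain to an extent that was not tested.

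The level of Gnao1 per coding kilobase exceeded that of each of the other 4 alpha members in both libraries. Against Gnai1 the ratio of levels per coding kilobase was 3.81 in replicate 1 (exact 95% interval 2.83 to 5.19) and 2.38 in replicate 2 (1.29 to 4.56). Against Gnai2 it was 3.96 (2.93 to 5.42) and 2.01 (1.13 to 3.68), against Gnaq 3.49 (2.63 to 4.70) and 2.75 (1.46 to 5.50), and against Gnaz 6.80 (4.68 to 10.19) and 2.38 (1.30 to 4.58). Per kilobase of whole transcript the ratio of Gnao1 to Gnai2 in replicate 2 was 1.03 (0.577 to 1.89), so this pair was no longer apart, while the ratios to Gnai1, Gnaq and Gnaz stayed above 1 in both libraries. None of the other 6 pairs of alpha members was apart in both libraries per coding kilobase. Per kilobase of whole transcript, Gnai2 was apart from Gnai1 (ratios of 1.70 and 2.10), Gnaq (2.77 and 4.31) and Gnaz (3.40 and 2.35). The Gnai2 transcript has 614 nucleotides of 3' untranslated region, against 1884, 4069 and 1695 for those genes. Gnaz lay below Gnaq in replicate 1, with Gnaq at 1.95 times its level (1.25 to 3.08), but not in replicate 2, where the ratio was 0.865 (0.391 to 1.89). Gnao1 held 51.3% of the summed level of the 5 alpha members in replicate 1 and 37.0% in replicate 2.

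The beta subunits are propeller-shaped proteins that bind the gamma subunit in a lasting dimer. Gnb1 (ENSMUSG00000029064) had 191 and 52 counts over 1023 coding nucleotides and levels of 506 and 454 CPM per coding kilobase (480 ± 36.8, SD, n = 2). Gnb2 (ENSMUSG00000029713) had 94 and 24 counts on an isoform with 1149 coding nucleotides and levels of 222 and 187 (204 ± 24.9, SD, n = 2). Gnb1 stood at 2.28 times the level of Gnb2 per coding kilobase in replicate 1 (1.77 to 2.95) and at 2.43 times in replicate 2 (1.47 to 4.13), so that the order held in both libraries. Per kilobase of whole transcript, however, the ratio was 1.04 (0.809 to 1.35) and 1.11 (0.672 to 1.88), and the pair was not apart. The Gnb1 transcript has 1811 nucleotides of 3' untranslated region and that of Gnb2 has 346.

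The gamma subunits are short proteins that carry a lipid anchor for the membrane, and Gng3 is known as a neuronal form. Gng3 (ENSMUSG00000071658), with 228 coding nucleotides, had 136 and 59 counts and levels of 1616 and 2311 CPM per coding kilobase (1964 ± 491, SD, n = 2). Gng2 (ENSMUSG00000043004), with 216 coding nucleotides, had 93 and 17 counts and levels of 1167 and 703 (935 ± 328, SD, n = 2). Gng3 was higher in replicate 2 and Gng2 in replicate 1, while the counting intervals of each gene overlapped between the libraries. Gng3 overlaps the gene Bscl2, and whether the counting used strand is not given in the sources used here. The level of Gng3 exceeded that of Gng2 by a ratio of 1.39 in replicate 1 (1.06 to 1.82) and 3.29 in replicate 2 (1.89 to 6.02). Gng3 ranked 29 and Gng2 ranked 88 among the 4294 protein-coding genes by mean level per coding kilobase.

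**Figure D1:**
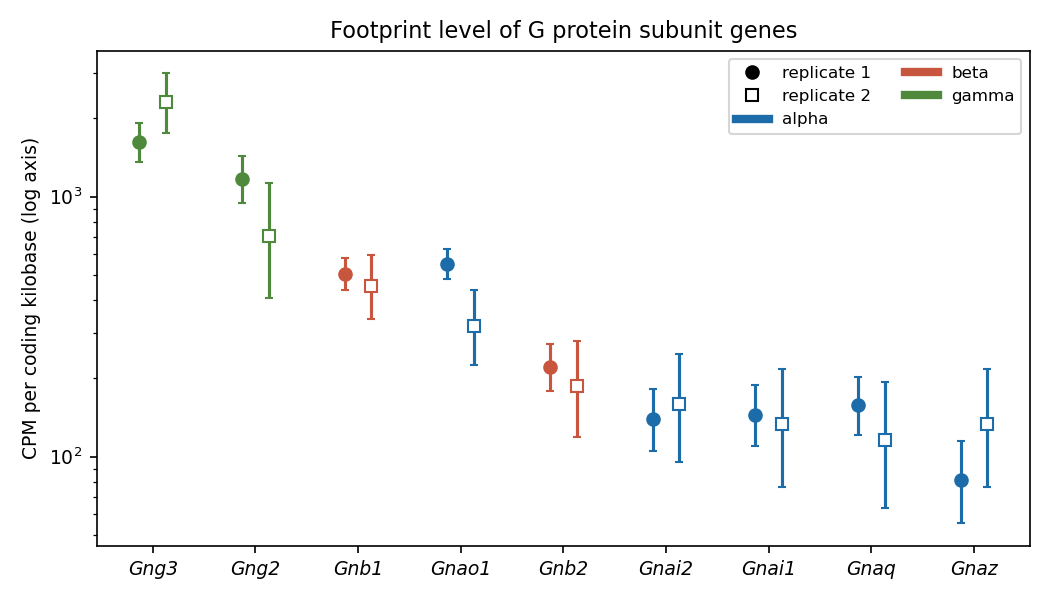
Footprint level of each subunit gene in CPM per coding kilobase on a log axis, with filled circles for replicate 1, open squares for replicate 2, exact 95% Poisson intervals as bars, and colours for the alpha, beta and gamma classes. The genes run from Gng3 (mean 1964) to Gnaz (mean 107), and Gnao1 is the gene whose intervals do not overlap between replicates.

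In order of mean level per coding kilobase the genes ran Gng3, Gng2, Gnb1, Gnao1, Gnb2, Gnai2, Gnai1, Gnaq and Gnaz. Of the 8 pairs of neighbours in this order, 1 was apart in both libraries, Gng3 above Gng2. Gnb1 and Gnao1 traded places between the libraries, with a ratio of levels of 0.916 in replicate 1 (0.750 to 1.12) and 1.42 in replicate 2 (0.920 to 2.22). Gng2 stood above Gnb1, and Gnao1 above Gnb2, beyond counting error in replicate 1 but not in replicate 2. The corresponding ratios in replicate 2 were 1.55 (0.839 to 2.72) and 1.71 (0.998 to 2.98). In replicate 1 alone 5 neighbours were apart, and in replicate 2 alone 1 was.

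The position of the gamma genes on this scale depended on the length used. Counts were given for whole transcripts, and the gamma transcripts are mostly untranslated sequence. The Gng2 transcript used has 216 coding nucleotides beside 362 of 5' and 3248 of 3' untranslated region. Another Gng2 isoform with the same coding length and 3433 fewer untranslated nucleotides had 53 and 12 counts, which is 40 and 5 counts fewer, or 43.0% and 29.4% of the count on the longer form. On that isoform the level of Gng2 was 581 ± 119 CPM per coding kilobase (SD, n = 2). Gng2 then still came after Gng3 and before Gnb1. Per kilobase of whole transcript it was 52.8 CPM and came sixth in the order, while Gng3, at 264 CPM, stayed at the top. Gng3 has a single annotated isoform in the table, with 1214 nucleotides of 3' untranslated region, so the same comparison could not be made for it.

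**Figure D2:**
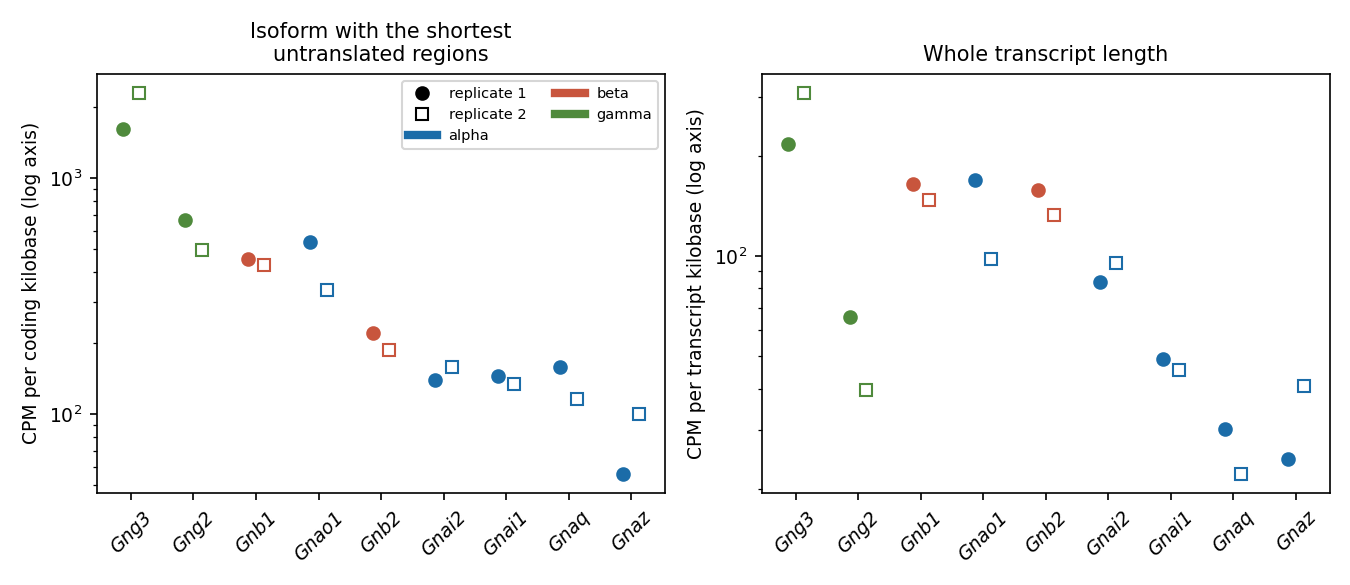
Levels of the 9 genes, in the order of the mean level per coding kilobase, on log axes: on the left from the isoform of equal coding length with the shortest untranslated regions among forms annotated with both (where there was another), on the right per kilobase of whole transcript. Filled circles are replicate 1 and open squares replicate 2, and Gng2 falls from the second place on the left to the sixth on the right.

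Summed per coding kilobase, the 5 alpha members reached 1076 in replicate 1 and 861 in replicate 2 (969 ± 152 CPM, SD, n = 2), and the 2 beta members 728 and 640.4 (684 ± 61.7). The 2 gamma members reached 2783 and 3014 CPM per coding kilobase (2898 ± 163). The beta sum was thus 0.676 and 0.744 times the alpha sum, and the gamma sum 2.59 and 3.50 times. With whole transcript lengths the beta sum was 0.902 and 0.931 times the alpha sum, and the gamma sum 0.790 and 1.16 times. The listed gamma members thus exceeded the listed alpha members in both libraries on the coding scale, and in replicate 2 alone on the whole transcript scale. These ratios depended on the genes listed. Over all subunit genes with a coding representative transcript, Gnas among them, the gamma sum per coding kilobase was 2.02 and 2.76 times the alpha sum. The beta sum was then 0.492 and 0.4998 times the alpha sum in replicates 1 and 2.

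Between the replicates, 1 of the 9 genes differed at a Benjamini-Hochberg adjusted p under 0.05 in a 2-sided exact binomial test of the reads of the 2 libraries. The background was 4.14% of all 5436 genes tested in either direction, and 0.147% lower in replicate 2, as the called member was. Among the 4392 protein-coding genes tested, 0.956% were called, and 0.137% lower. With 9 genes chosen while this result was known, the count of 1 says nothing about the set as a whole. Of the 9 log2 ratios, 6 were below 0 and 3 above, where 49.9% of all genes tested were below 0, with a median of -0.16, against a median of 0.0041 over all genes tested and -0.016 over protein-coding genes. Scaled by library totals, which moved the median of all genes to -0.20, 7 ratios were below 0 and 2 above, the difference being Gnai2.

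The called gene was Gnao1. Its abundance was 588 CPM in the first library and 339 CPM in the second, which gave a ratio of -0.79 on the log2 scale (counting SE 0.253, adjusted exact binomial p = 0.0286). For its sum of 255 counts this was also the smallest lower ratio that could have been called. The call was lost when protein-coding genes alone were scaled and tested (log2 ratio -0.77, adjusted exact binomial p = 0.175), and when a biological coefficient of variation of 0.2 was allowed in edgeR's exact test (log2 ratio -0.79, adjusted p = 1, unadjusted p = 0.105), a rule that called 2.41% of all genes, and 0.0184% lower. The summed neuronal markers were at 7068 and 8206 CPM, while the median log2 ratio of the 8 markers was 0.030. Of these markers 3 were below 0, and 1 was called higher, where 4.14% of all genes tested were called in either direction. The part of neuronal content in the Gnao1 difference was not tested.

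The other 8 genes did not pass. Gng3 had the largest ratio relative to its error, at 0.51 (counting SE 0.224), with an unadjusted exact binomial p of 0.0272 and an adjusted p of 0.371. Gnaz had a log2 ratio of 0.71 (counting SE 0.438) and Gng2 one of -0.73 (0.378), and their adjusted p in the exact binomial test were 0.746 and 0.552. The ratios of Gnb1, Gnb2, Gnai1, Gnai2 and Gnaq lay between -0.45 and 0.19. At these depths only large differences could be called. For Gnb1 the ratio had to reach -0.80 or 0.64, and for Gnaz -2.74 or 1.35.

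**Figure D3:**
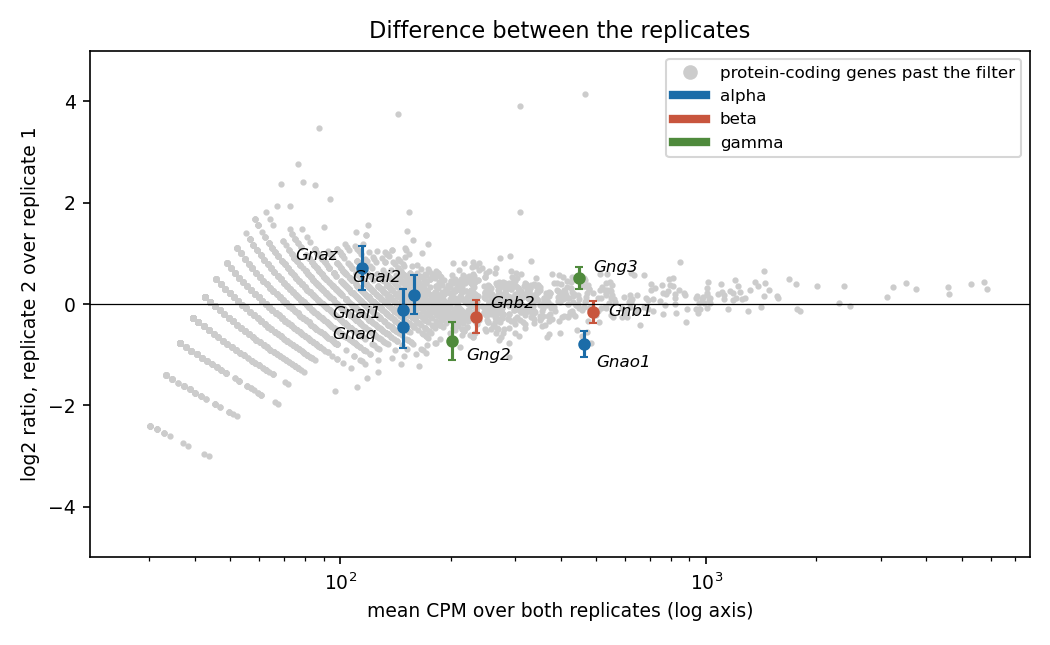
Log2 ratio between the libraries (replicate 2 divided by replicate 1, after adding 1 CPM) against the mean CPM (log axis), with protein-coding genes past the filter in grey and the 9 subunit genes in the colour of their class with counting standard errors. Gnao1 lies at -0.79 and Gng3 at 0.51 among genes of similar abundance.

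Annotated isoforms gave a closer view of where the counts lay. Gnao1 has 11 isoforms in the table. The 2 forms with a full coding sequence, Gnao1-001 and Gnao1-002, have equal coding length and carried 212 and 217 counts in replicate 1 and 40 and 38 in replicate 2. Counts of shared exons enter both, so their usage could not be separated. The retained-intron form Gnao1-004, of 935 nucleotides, had 90 and 34 counts in the first and second library. Its log2 ratio was 0.31, opposite in sign to that of Gnao1-002. The form Gnao1-007, annotated for nonsense-mediated decay, had 86 and 11 counts, with a log2 ratio of -1.24. Gnao1-006, a coding form with 539 coding nucleotides and no 3' untranslated region, had 80 and 20 counts, with a log2 ratio of -0.28. The counting SE of these ratios was 0.289 for Gnao1-004, 0.458 for Gnao1-007 and 0.359 for Gnao1-006, against 0.253 for Gnao1-002. The isoforms can share fragments, and whether their ratios differ was not tested.

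Gnb1 has 9 isoforms, and its 3 full-length forms Gnb1-001, Gnb1-004 and Gnb1-201 carried 187, 172 and 191 counts in replicate 1 and 51, 49 and 52 in replicate 2. Gnb1-008 has the same coding length and no annotated 5' untranslated region, and had 134 and 41 counts, fewer than each of those forms in both libraries. On that form the level of Gnb1 was 355 and 358 CPM per coding kilobase (356 ± 2.06, SD, n = 2), below the mean of Gnao1. It lay below Gnao1 in replicate 1 (552) and above it in replicate 2 (319). The Gnao1 transcript keeps 496 nucleotides of 5' untranslated region, so the 2 forms are not trimmed alike. The 5' untranslated region has 309 nucleotides in Gnb1-201 and is 52 nucleotides shorter in Gnb1-004, which had 19 and 3 counts fewer. Whether the shorter region lies within the longer one was not tested. Gnb2 has 15 isoforms, with 21 to 94 counts in replicate 1 and 5 to 25 in replicate 2. Gnai2 has 10 isoforms with 1 to 55 and 2 to 21 counts, and Gnaq 3 isoforms with 10 to 63 and 2 to 14. The Gnaz isoforms Gnaz-001 and Gnaz-002 had 32 and 22 counts in replicate 1 and 16 and 12 in replicate 2, and differ by 188 nucleotides of untranslated region, 179 of them on the 5' side.

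**Figure D4:**
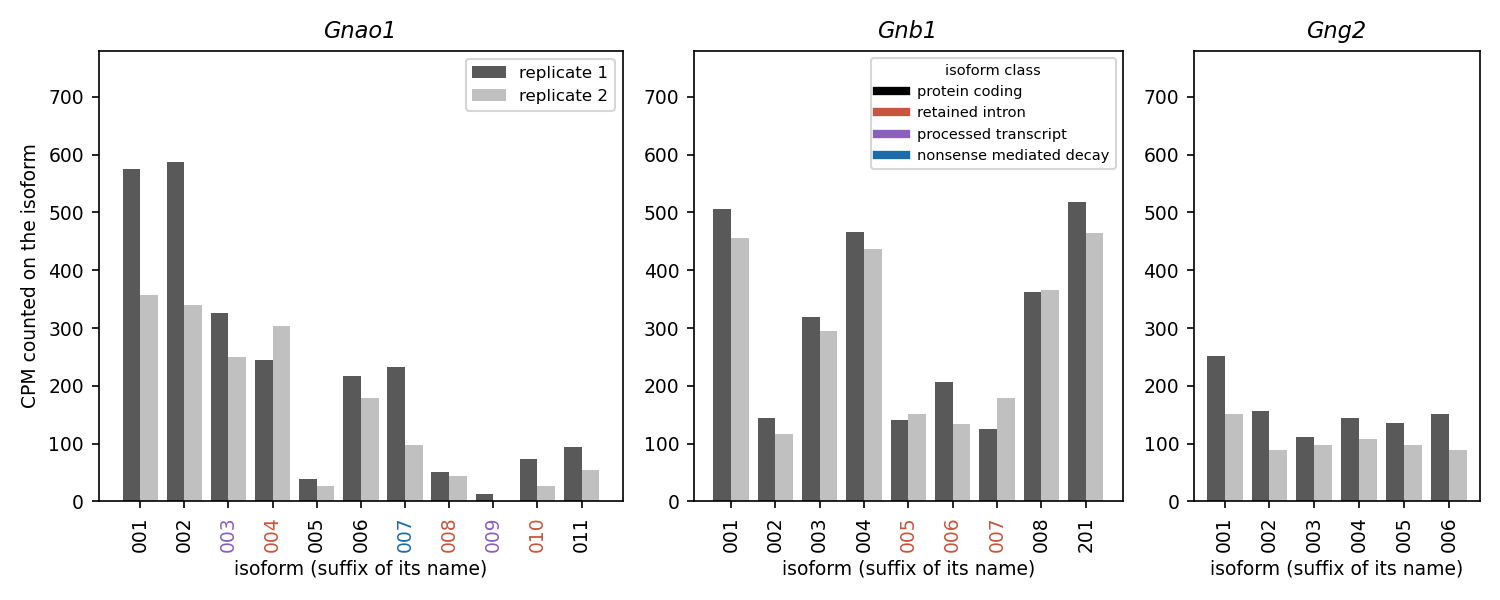
CPM counted on each annotated isoform of Gnao1, Gnb1 and Gng2 in replicate 1 (dark bars) and replicate 2 (light bars), with the isoform class in the colour of the label. The full coding forms of Gnao1 are higher in replicate 1, the retained-intron form 004 is higher in replicate 2, and the 6 Gng2 isoforms peak at the form with the longest 3' untranslated region.

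Other subunit genes came from lists of 10 alpha, 3 beta and 10 gamma genes. Counts were seen for 6 of the 10 alpha genes, 3 of the 3 beta genes and 9 of the 10 gamma genes. Gnas, which encodes Gs alpha, the activator of adenylyl cyclase, had 223 and 64 counts and a level of 496 ± 19.6 CPM per coding kilobase (SD, n = 2), above the mean of Gnao1 and within its spread. Its representative transcript has 1185 coding nucleotides and 2362 of 5' untranslated region. On its longest coding isoform, with 3402 coding nucleotides, Gnas had 113 and 32 counts and stood at 89.8 ± 4.23 (SD, n = 2). That form encodes a longer protein, so this value is no alternative level for the form with 1185 coding nucleotides. The isoforms can share fragments, and how the Gnas counts divide between them was not tested. Gnal, the alpha subunit of olfactory and striatal neurons, stood at 81.1 ± 30.4, and Gna11, a close relative of Gnaq, at 76.6 ± 26.5 (SD, n = 2). The alpha genes of rod and cone photoreceptors, Gnat1 and Gnat2, had no count, nor did Gnat3 of taste cells or Gna15. Gnb4 stood at 83.5 ± 31.7 and Gnb5 at 70.0 ± 13.9 CPM per coding kilobase (SD, n = 2). Gng4 had 21 and 13 counts and stood at 379 ± 184, followed by Gng5 at 193 ± 32.2 and Gng10 at 186 ± 41.4 CPM per coding kilobase (SD, n = 2). Gng5 and Gng10 averaged fewer counts than the filter asks.

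The listed members held 58.0% of the summed level of all alpha genes with a coding representative transcript in replicate 1 and 56.5% in replicate 2. They held 79.7% and 84.1% of the beta sum, and 74.1% and 71.6% of the gamma sum. No other subunit gene was called different between the libraries, of 4 alpha, 2 beta and 1 gamma genes past the filter. Of all genes tested 4.14% were called, and of protein-coding genes 0.956%. The median log2 ratios of those lists were -0.56, -0.59 and 1.02, against 0.0041 over all genes tested.

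**Figure D5:**
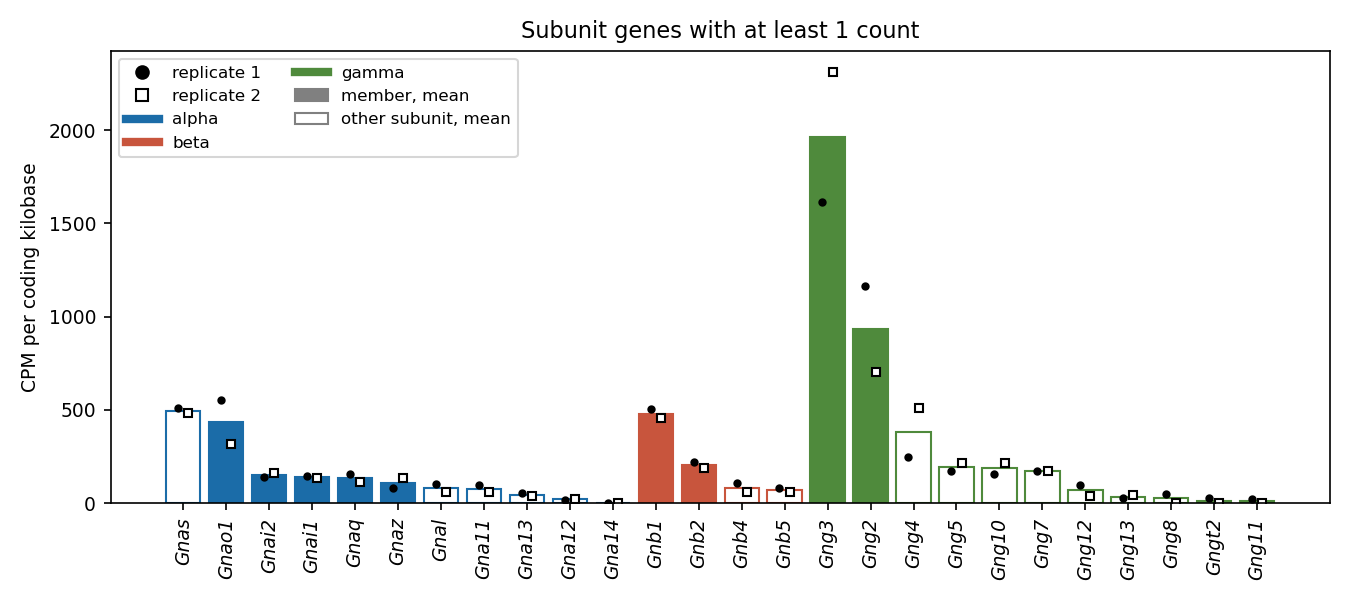
Mean footprint level, in CPM per coding kilobase, of each subunit gene with at least 1 count and a coding representative transcript, filled for the listed members and open for other subunits, with replicate 1 as circles and replicate 2 as squares. On these transcripts Gnas (a form with 1185 coding nucleotides) and Gnao1 lead the alpha genes, Gnb1 the beta genes, and Gng3 with Gng2 the gamma genes.

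The rest of the pathway was read from lists of regulators, receptor kinases and arrestins, effectors and receptors. Over all 8 lists beyond the members, 122 of 126 symbols were found and 35 genes passed the filter, of which 0 were called higher and 0 lower. The background was 4.14% of all genes tested and 0.956% of the protein-coding genes, so the count of 0 says nothing about the pathway. Among regulators, 6 of 25 genes passed. Gprin1, a protein of growth cones that binds activated Go and Gi alpha, had 126 and 29 counts and a level of 107 ± 20.8 CPM per coding kilobase. Rgs4, which speeds GTP hydrolysis by Gi and Gq alpha, stood at 78.7 ± 49.97 (SD, n = 2 for each), with 26 and 3 counts, and Pcp2 had 6 and 3 counts, below the filter. The median log2 ratio of the 6 regulators was -0.79, against 0.0041 over all genes tested, and none of the 6 was called.

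Of the receptor kinases and arrestins, 2 of 7 passed the filter. Arrb1, an arrestin that uncouples receptors from G proteins, stood at 59.7 ± 4.02 CPM per coding kilobase (SD, n = 2). Adrbk1, a receptor kinase, stood at 29.3 ± 4.84, and Grk6 at 22.7 ± 2.07 with 15 and 4 counts (SD, n = 2 for each). The median log2 ratio of the list was -0.23. Of the effectors, 8 of 23 passed. The adenylyl cyclase Adcy1 stood at 49.4 ± 2.11, Rap1gap, a GTPase activator that binds Gi-class alpha subunits, at 40.3 ± 0.835, and the phospholipase C gene Plcb1 at 29.7 ± 2.59 CPM per coding kilobase (SD, n = 2 for each). The median log2 ratio of the effectors was -0.022. The named kinases, arrestin and effectors thus lay below every measured subunit member by mean level on the coding scale. The counting intervals of Gnaz and Arrb1 overlapped, however, at 55.5 to 115 and 41.9 to 89.8 in replicate 1. In replicate 2 they were 76.5 to 217 and 24.5 to 112.

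Of the receptors coupled to Gi and Go, 8 of 31 passed, and of those coupled to Gq, 4 of 13 passed, with median log2 ratios of -0.27 and 0.099. The leading Gi and Go receptor by level per coding kilobase was Gabbr1, a subunit of the GABA-B receptor, with 121 and 29 counts. Its representative transcript is annotated for nonsense-mediated decay and has 534 coding nucleotides, which raised the level to 550 ± 91.3. On its longest coding isoform, with 2883 coding nucleotides, Gabbr1 had 112 and 34 counts and stood at 109 ± 0.218 CPM per coding kilobase (SD, n = 2). Oprl1 and Grm7, a nociceptin and a glutamate receptor, were represented by transcripts of the same class, and stood at 27.7 ± 3.74 and 23.1 ± 4.41 on their longest coding isoforms (SD, n = 2). Among Gq-coupled receptors, the endothelin receptor Ednrb led at 122 ± 11.5 CPM per coding kilobase. The muscarinic receptor Chrm1 stood at 34.1 ± 6.61 and the glutamate receptor Grm5 at 32.1 ± 14.0 (SD, n = 2 for each). Their order turned between the libraries, and on the longest coding isoforms Chrm1 stood at 20.8 ± 10.6 and Grm5 at 33.1 ± 14.4.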

How the data were processed

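The authors deposited 1 table of whole-number footprint counts per transcript and replicate, not normalised, with transcript, coding and untranslated lengths. Per the submitters' processing notes, Trimmomatic 0.36, Bowtie2 2.2.6, SAMtools and the build GRCm38.p4 were used; the counting tool, its use of strand and the annotation release are not given in the sources used here. Counts of isoforms and of near-identical genes may share fragments. Columns were assigned by the control and RiboLace words and the replicate number in their names.

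A gene took its transcript with the highest summed count, the longer in a tie. CPM used effective library sizes from edgeR 4.0.16 with TMM factors (1.07 and 0.931) over genes averaging 10 counts or more, and levels divided CPM by the coding length. Log2 ratios used log2(CPM + 1), which understates changes of low genes, with a standard error for counting error. The 2-sided exact binomial test (scipy 1.17.1) was adjusted by Benjamini-Hochberg over all 5436 genes past the filter, at 0.05. It compares the libraries, not conditions. Its only trial was on simulated libraries with counting error alone, which cannot show how it behaves where the spread is larger. Ratios of levels of 2 genes carry exact conditional binomial 95% intervals, without adjustment over pairs, and counts exact Poisson intervals. Named were all members, up to 3 genes of each other list by level per coding kilobase and any called gene, and the 3 genes nearest to the highest member in level. Alternatives were other scalings (library totals, DESeq2 1.42.0 size factors), protein-coding genes alone, a preset coefficient of variation, other isoform rules, lengths, pseudocount and filters. The members and lists were chosen with earlier results of these data known. No genome or protein sequence was used here, so fragments shared between paralogs were not measured and no coordinates are given.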

Additional observations from a re-analysis of the deposited data

How the results depend on the processing

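No paired analysis was possible because the series has a single group. Of 72 log2 ratios of members under alternatives, 69 kept their sign and their side of the threshold. That of Gnai2 reversed from 0.19 to -0.019 with library totals, which lower the median ratio of all tested genes to -0.20; it was not called either way. The number of members that differ went from 1 to 0 with protein-coding genes alone and to 0 with a preset coefficient of variation of 0.2. It stayed at 1, Gnao1, under the other 6 alternatives, which all use the same 2 libraries. Of these, library totals and no count filter gave medians of -0.20 and -0.25 over all genes tested, which is to the side of the Gnao1 call. Summing isoforms can count a shared fragment several times, so its p is too small to an extent that was not measured. Per kilobase of whole transcript the summed levels became 329.9 for alpha, 302 for beta and 316 CPM for gamma members, by construction of the longer divisor. The isoforms with the shortest untranslated regions among those annotated with both, an alternative chosen after seeing the data, gave a gamma sum of 2544 and 2 neighbours apart in place of 1. Leaving out each replicate gave 1 to 5 neighbours apart; the library left has no second library to pass. The members' share of counts became 0.313% of protein-coding counts, a smaller denominator. Of the 12 pairs of members of the same class, 6 were apart, 7 with whole transcript length (3 gained, all of Gnai2, and 2 lost, Gnao1 over Gnai2 and Gnb1 over Gnb2) and 6 to 9 in single libraries, another comparison added after seeing the data. Where no cause is given, the cause was not tested. The depth of replicate 2, with 14 to 59 counts per member, limits each comparison.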

Other observations

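The genes nearest to Gng3 in level per coding kilobase, over the 2 libraries, were Fabp7, Cfl1 and Ptms, at distances of 0.032, 0.058 and 0.085 on the log2 scale. Fabp7, a fatty acid binding protein of radial glia, had levels of 1650.4 and 2328 CPM per coding kilobase, Cfl1, the actin-severing protein cofilin, 1680 and 2285, and Ptms, parathymosin, 1612 and 2451. With only 2 libraries this likeness is one of level.

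Some members lie over other genes in RefSeq's GRCm38.p6 annotation. Gng3 overlaps Bscl2, the seipin gene, which had 17 and 4 counts against 136 and 59 for Gng3. The span of Gnaq holds the pseudogenes Gm10819, with 113 and 26 counts, and E030024N20Rik, with 88 and 18, both above Gnaq itself at 63 and 14. Gnaz overlaps Rsph14, which had no count in either library. Whether fragments of these genes were counted for the members was not tested.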
